A study of Homo sapiens with 6 samples.

Results

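The linear ubiquitin genes were examined in U87-MG, a long-established human cell line grown from a glioblastoma, and comprise RBCK1, RNF31, SHARPIN, OTULIN, CYLD and TNFAIP3. They are 6 of the 61806 genes in the deposited table, found by symbol. The group was chosen by the measured rise of RBCK1 between the groups compared here, and the other 5 genes were added for their role beside it. The values of RBCK1 in this comparison are therefore a description and carry no test.

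Linear ubiquitin chains join the start of a ubiquitin to the end of the next. The ligase that builds them, LUBAC, is made of HOIP (RNF31), which holds the catalytic site, and of HOIL-1 (RBCK1) and SHARPIN, which hold HOIP stable and active. The chains form at signalling receptors such as the TNF receptor, where they recruit the kinase complex that switches on NF-kB and restrain cell death. OTULIN cuts only linear chains, and CYLD cuts linear and lysine-63 chains. TNFAIP3 (A20) binds linear chains, edits ubiquitin at these receptors, and is itself a classical NF-kB target gene.

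Total RNA was sequenced in 3 negative control (NC) libraries, with the genotype given as wild type, and in 3 libraries labelled GRIK1 siRNA (siRNA-labelled libraries), with the genotype given as GRIK1 knockdown. The paper's methods describe transfection with GRIK1 siRNA, while the deposited design text names an shRNA, and no time after transfection is given. The labels number the second group 1 to 3 without saying whether these are replicates or siRNA sequences. The methods list several siRNA sequences against GRIK1, numbered in the same way, and the paper states that the first was taken forward for its efficiency, without saying which was sequenced here. The libraries were used as replicates, and nothing states separate cultures, so p-values measure only the spread between these libraries.

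Total counts lay between 11099909 and 14006968 per library. GRIK1, the targeted gene, gave 18, 9 and 8 counts in NC, against 15, 20 and 20 in the siRNA-labelled libraries. The gene named in the treatment was thus not reduced by this measure, but these counts are too few to measure a knockdown. At 0.13 to 0.38 FPKM it lay below the filter of a mean of 0.5 FPKM and was not tested. The paper reports efficient knockdown of GRIK1 in U87-MG cells, without stating its level in these libraries. NC library 3 stood apart from the other 5 libraries on the first principal component (59.6% of the variance). Ribosomal protein genes took 9.37% of its counts, against 4.79% to 5.50% in the others. The fold changes of the members are given with and without it. Many values of neighbouring and list genes are given with all 6 libraries only, and some of them change without it. Of 6 markers of glioblastoma lines, VIM, CD44 and SPARC were at 50.8 FPKM or more in each library. TNC was at 24.8 or more and FN1 at 11.6 or more, while NES, the neural stem cell filament nestin, was near absent at 0.21 to 0.69 FPKM. The summed level of these 6, most of it VIM, was 992 to 1490 FPKM in NC and 1730 to 1780 FPKM in the siRNA-labelled libraries, with SPARC alone at 80.3 to 135 and 418 to 429 FPKM. By contrast, 5 of 7 glial and neural markers, GFAP and SOX2 among them, stayed below 0.5 FPKM. The others were SNAP25 at 1.45 to 2.15 FPKM and OLIG2 at 0.41 to 0.83 FPKM. The summed level of these 7 was 2.27 to 3.23 FPKM in NC and 2.71 to 2.76 FPKM in the siRNA-labelled libraries. Of 9 markers of other cell types, 7 stayed below 0.5 FPKM, with AIF1, CD3E and MS4A1 at 0 counts. The summed level of these 9 was 3.08 to 4.87 FPKM in NC and 5.59 to 5.86 FPKM in the siRNA-labelled libraries, nearly all of it CD68 and EPCAM, and their part in the results was not tested.

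Promoter sequences are shown first for RBCK1, RNF31, TNFAIP3 and CYLD, to set the letters around the starts of these genes beside their values. The gene starts used for the windows are those of RefSeq and can differ from the starts given with each gene below. The RefSeq promoter windows (GRCh38.p14, 300 bases, from 250 before to 50 after the gene start) of RBCK1, RNF31, OTULIN, CYLD and TNFAIP3 were searched on both strands for the NF-kB site consensus (the kappaB motif) and for the core of the interferon-stimulated response element (TTTC, any 2 bases, TTTC). The 2 motifs do not overlap in these windows. The motifs were chosen with the members' values known. In each stretch of 30 bases below, the plus strand is printed 5′ to 3′ and the capitals mark the matched motif, whose kappaB matches read on the minus strand.
RBCK1, chr20:408291-408320, interferon element core: gggccgccacTTTCACTTTCtcttccgccg
RNF31, chr14:24146625-24146654, interferon element core: gggcTTTCGCTTTCactccccaggtccagg
TNFAIP3, chr6:137867188-137867217, kappaB motif at 2 places: ctttGGAAAGTCCCgtGGAAATCCCCgggc
CYLD, chr16:50741887-50741916, kappaB motif: ttgacagagcGGAAAGTCCCttcggccggc

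The interferon element core was found in the window of RBCK1, where it starts at position 3 counted from the RefSeq gene start. That start lies inside the span given below for RBCK1. The core was also found in 1 of the 2 windows of RNF31, and neither gene had a kappaB match in its windows. TNFAIP3 had the kappaB motif at 2 places starting 67 bases before the gene start, and no interferon element core. CYLD had a kappaB match in 2 of its 3 windows, and OTULIN had neither motif. Of all 35116 windows of this length, 3.57% held the interferon element core and 11.3% the kappaB motif. A match describes these letters only and is not evidence of binding. The RBCK1 stretch overlaps an annotated exon of GENCODE 29, as does that of TNFAIP3.

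RBCK1 (ENSG00000125826, chromosome 20 from 407498 to 432139, plus strand) encodes HOIL-1, a RING-between-RING protein. It stood at 7.41, 5.83 and 4.82 FPKM in NC libraries 1, 2 and 3, and at 21.0, 17.8 and 17.8 FPKM in siRNA-labelled libraries 1, 2 and 3. FPKM here is the count scaled to the exonic size of the gene and to the total count of the library. The groups did not overlap, and NC library 3 was the lowest of the 6. The means were 6.02 ± 1.31 and 18.9 ± 1.85 FPKM (SD, n = 3 each). In CPM, the count scaled to the library total after TMM scaling, the means were 66.6 ± 10.8 and 198 ± 19.1 (SD, n = 3 each), a log2 fold change (log2FC, siRNA-labelled over NC) of 1.57 with a standard error (SE) of 0.15 or 2.97-fold. Without NC library 3 the log2FC was 1.48 (SE 0.09). In rank of log2FC, RBCK1 was number 429 from the largest rise among 15870 genes tested.

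RNF31 (ENSG00000092098, chromosome 14 from 24146683 to 24160660, plus strand), the catalytic subunit, was the least abundant member by FPKM in both groups. Its values were 0.93, 1.07 and 0.35 FPKM in NC and 1.98, 1.58 and 1.68 FPKM in the siRNA-labelled libraries. Each of the latter lay above each NC library, with NC library 3 the lowest of the 6. These values rest on 69, 80 and 33 counts in NC and 165, 134 and 149 in the others. Most of its span is also covered by another gene on the same strand, described below. How reads shared by both genes were counted was not examined. On the CPM scale the difference was 2.16-fold, a log2FC of 1.11 (SE 0.33), and it did not pass (edgeR adjusted p = 0.107). It passed in DESeq2 with a log2FC of 1.11 (adjusted p = 0.0233) and, without NC library 3, in edgeR with 0.78 (SE 0.16, adjusted p = 0.000776).

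SHARPIN (ENSG00000179526, chromosome 8 from 144098633 to 144108124, minus strand), the accessory subunit, showed no separation of the groups. It was measured at 14.2, 12.1 and 9.72 FPKM in NC and at 12.9, 9.45 and 9.90 FPKM in the siRNA-labelled libraries, and the groups overlapped. The log2FC of its CPM was -0.24 (SE 0.17, edgeR adjusted p = 0.385). With NC library 3 left out it was -0.33 (SE 0.12, edgeR adjusted p = 0.0360).

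**Figure D1:**
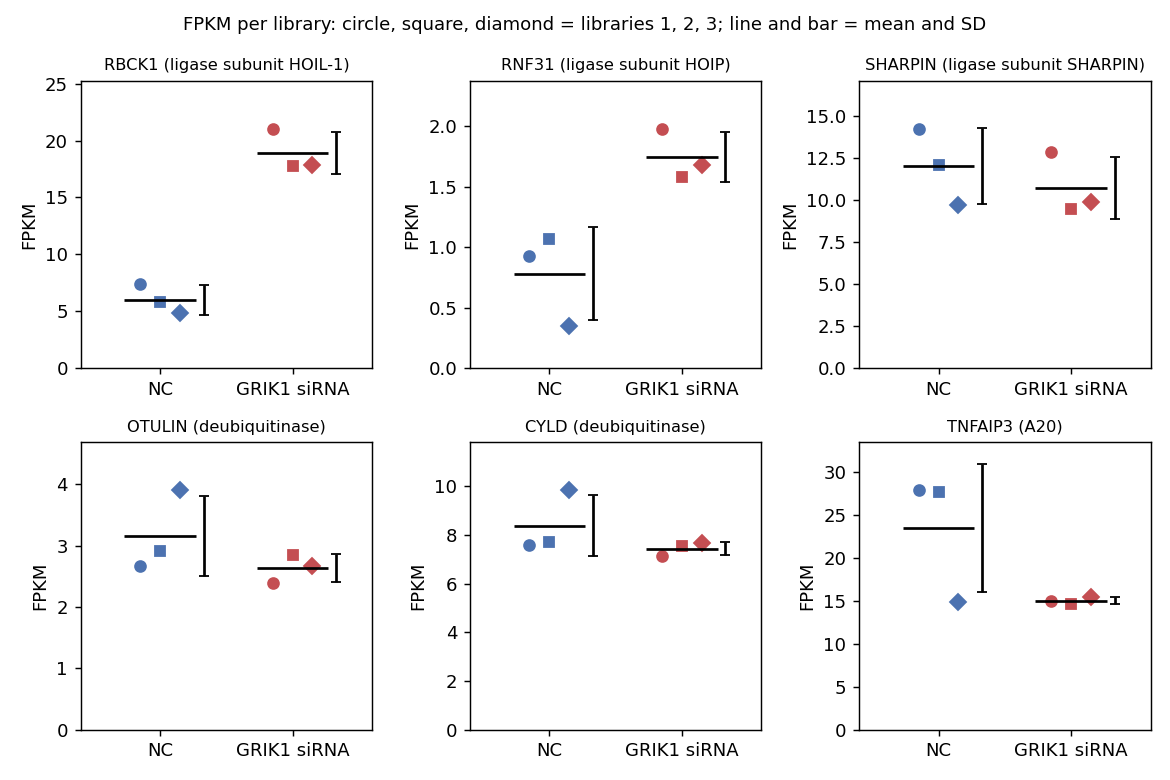
FPKM (vertical axes, from 0) of the 6 genes in each library, with NC in blue, GRIK1 siRNA in red, and the mean and SD (n = 3) in black. RBCK1 lay at 4.82 to 7.41 in NC and 17.8 to 21.0 in GRIK1 siRNA, RNF31 was separated at a lower level, and NC library 3 (diamond) was the highest NC value for OTULIN and CYLD and the lowest for TNFAIP3.

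The proportions of the ligase subunits within a library do not depend on the scaling between libraries. RBCK1 made up 32.8%, 30.7% and 32.4% of the summed FPKM of RBCK1, RNF31 and SHARPIN in NC libraries 1, 2 and 3. The share was 58.6%, 61.7% and 60.6% in the siRNA-labelled libraries, which is 28.4 percentage points higher on average. The level of the share depends on the length used. Per length of the principal transcript the means were 53.3% in NC and 78.5% in the siRNA-labelled libraries, and in CPM, without a length, they were 62.6% and 83.1%. By FPKM RNF31 was the smallest part in both groups. The ratio of SHARPIN to RNF31, which does not use RBCK1, was 15.3, 11.3 and 27.8 in NC and 6.49, 5.98 and 5.89 in the others. On the log2 scale it was 4.08 ± 0.66 in NC and 2.61 ± 0.07 in GRIK1 siRNA (SD, n = 3 each; two-sided exact permutation test, p = 0.1, the smallest that 3 libraries against 3 allow). The groups did not overlap, and the highest ratio was that of NC library 3.

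The ratio of OTULIN to RNF31, the chain-cutting enzyme against the catalytic subunit of the ligase, was 2.86, 2.72 and 11.1 in NC. It was 1.21, 1.80 and 1.58 in the siRNA-labelled libraries. Its log2 value was 2.15 ± 1.15 in NC and 0.60 ± 0.30 in the others (SD, n = 3 each; two-sided exact permutation test, p = 0.1, again the smallest possible). The groups did not overlap, and NC library 3 was far above the other NC libraries. With NC library 3 left out, the mean difference on the log2 scale was -0.88, against -1.55 with all 6 libraries. Both ratios have RNF31 as their denominator, so they are not separate observations.

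**Figure D2:**
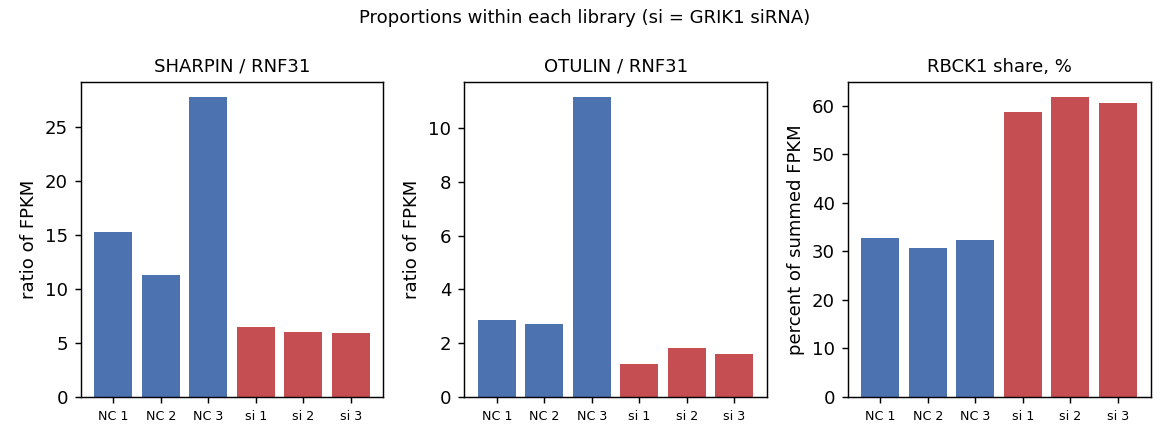
Bars from 0 for each library (NC 1 to 3 in blue, GRIK1 siRNA 1 to 3 in red). Left and middle, the ratio of SHARPIN or OTULIN FPKM to that of RNF31, higher in each NC library; right, RBCK1 as a percent of the summed FPKM of the 3 ligase subunits, between 30.7% and 32.8% in NC and between 58.6% and 61.7% in GRIK1 siRNA.

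OTULIN (ENSG00000154124, chromosome 5 from 14664664 to 14699850, plus strand), the deubiquitinase specific for linear chains, was at 2.66, 2.91 and 3.90 FPKM in NC and at 2.39, 2.85 and 2.66 FPKM in the siRNA-labelled libraries. Apart from NC library 3 the values of both groups ran together. The log2FC of its CPM was -0.36 (SE 0.21, edgeR adjusted p = 0.307), and -0.11 (SE 0.11, adjusted p = 0.482) without NC library 3.

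CYLD (ENSG00000083799, chromosome 16 from 50742050 to 50801935, plus strand), a tumour suppressor deubiquitinase, followed OTULIN across the libraries. It stood at 7.61, 7.70 and 9.84 FPKM in NC and at 7.14, 7.54 and 7.66 FPKM in the siRNA-labelled libraries, and only NC library 3 was clear of the rest. The log2FC of its CPM was -0.27 (SE 0.17, edgeR adjusted p = 0.346), and -0.07 (SE 0.06, adjusted p = 0.396) without NC library 3. Over the 6 libraries the log2 CPM of CYLD and OTULIN had a Pearson r of 0.98, a description in which NC library 3 is the highest point of both.

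TNFAIP3 (ENSG00000118503, chromosome 6 from 137867214 to 137883314, plus strand) was the most abundant member in NC. It was measured at 27.8 and 27.7 FPKM in NC libraries 1 and 2, but at 14.8 FPKM in NC library 3. The libraries labelled GRIK1 siRNA had 14.99, 14.6 and 15.5 FPKM, so on this scale NC library 3 lay inside their range. After TMM scaling it stood at 176, 177 and 107 CPM in NC and at 93.3, 90.8 and 96.8 CPM in the others, and the groups did not overlap. The log2FC was -0.71 (SE 0.20, edgeR adjusted p = 0.0967), which did not pass. TNFAIP3 passed in DESeq2 with -0.71 (adjusted p = 0.0251) and, without NC library 3, in edgeR with -0.91 (SE 0.05, adjusted p = 2.4e-10), a level of 0.531 of that in NC libraries 1 and 2. It did not pass in limma-trend on log2(FPKM + 1), where the difference was -0.56 (adjusted p = 0.222).

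**Figure D3:**
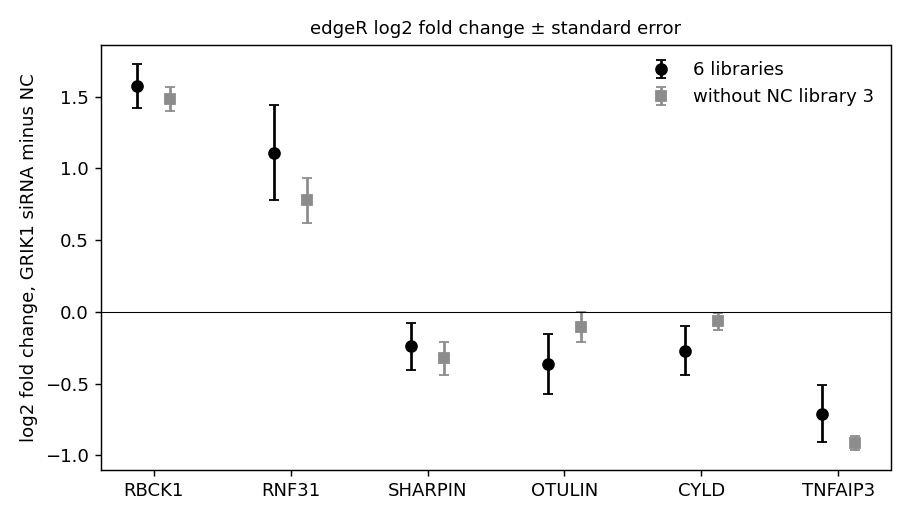
Log2 fold change between GRIK1 siRNA and NC (vertical axis, GRIK1 siRNA minus NC) of the 6 genes from edgeR, with the standard error as bars, for all 6 libraries (black circles) and without NC library 3 (grey squares). RBCK1 and RNF31 lie above 0 in both, TNFAIP3 lies near -0.71 and -0.91, and OTULIN and CYLD move close to 0 once NC library 3 is left out.

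All 6 members passed the filter of a mean of 0.5 FPKM. Of the 5 members other than RBCK1, 0 passed an adjusted p of 0.05 in edgeR, 2 (RNF31 and TNFAIP3) had an unadjusted p under 0.05, and the number past an adjusted p of 0.05 was 2 in DESeq2 and 0 in limma-trend. Across all genes tested, 25.1% had an unadjusted p under 0.05, and 11.8% of those with an adjusted p in DESeq2 and 2.56% in limma-trend passed in either direction. In edgeR, 1.61% passed as higher and 1.48% as lower, and 0.87% and 0.542% did so with an absolute log2FC over 1. On the CPM scale, RNF31 alone of the 5 members other than RBCK1 did not overlap between groups and was higher, against 19.4% of all genes tested. RBCK1 was separated too, but it is left out of this count because its rise chose the group. The groups of a further 2 of these 5 did not overlap and were lower (CYLD, TNFAIP3), against 19.0%, with CYLD separated by less than 1 CPM. Without NC library 3, 3 of the 5 members passed (RNF31 higher, SHARPIN and TNFAIP3 lower). In that fit 16.7% of all genes tested passed as higher and 18.3% as lower, so the members' share stands against a high background.

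In NC the order of the levels by mean FPKM was TNFAIP3 (23.4), SHARPIN (12.0), CYLD (8.38), RBCK1 (6.02), OTULIN (3.16) and RNF31 (0.783). Only SHARPIN and CYLD overlapped among neighbours in this order. In the siRNA-labelled libraries RBCK1 came first (18.9), followed by TNFAIP3 (15.01), SHARPIN (10.7), CYLD (7.45), OTULIN (2.63) and RNF31 (1.75), and no neighbours overlapped. The order depends on the length used. The table gives RBCK1 an exonic size of 10757 bases, while its principal GENCODE 29 transcript has 2774, and SHARPIN has 2783 against 1765. Per length of the principal transcript, an alternative added after the data were seen, TNFAIP3 (31.6), CYLD (30.7) and RBCK1 (23.4) led in NC, with SHARPIN at 19.0 and overlap between each neighbouring pair of these 4. On that scale RBCK1 led in the siRNA-labelled libraries (73.2), and RNF31 (3.24) and OTULIN (2.96) overlapped.

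The genes around the members were measured next, because the strand setting of the counting is not given in the sources used here and reads of overlapping genes could then not be told apart. TBC1D20, which shares 8544 bases with RBCK1 on the opposite strand, had a log2FC of 0.32 (SE 0.12, edgeR adjusted p = 0.164), and 0.26 (adjusted p = 0.0054) without NC library 3. TRIB3, 9939 bases before RBCK1, had 0.08 (edgeR adjusted p = 0.738). PSME2, a proteasome activator gene that overlaps the start of RNF31 over 888 bases on the opposite strand, had -0.23 (edgeR adjusted p = 0.27). ENSG00000259529, a gene with no symbol that covers 13113 bases of RNF31 on the same strand, had 3, 7 and 2 counts in NC and 5, 16 and 14 in the others. Strand would not tell apart reads from bases that these genes share. Any effect on the level, fold change and ratios of RNF31 was not tested. IRF9, a subunit of the interferon-activated factor ISGF3, starts 574 bases after RNF31. It had 86, 67 and 39 counts in NC and 112, 102 and 128 in the siRNA-labelled libraries, with a log2FC of 0.64 (SE 0.31, edgeR adjusted p = 0.234). EMC9, before RNF31, had -0.10 (edgeR adjusted p = 0.763).

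SHARPIN shares 3151 bases with MAF1 and 399 with WDR97 on the opposite strand. MAF1 had a log2FC of -0.49 (edgeR adjusted p = 0.290), and WDR97 had 11, 18 and 3 counts in NC against 30, 37 and 47. CYC1, next to SHARPIN, had -0.34 (edgeR adjusted p = 0.305). CYLD-AS1, opposite the start of CYLD, had 0.03 (edgeR adjusted p = 0.973), and WAKMAR2, opposite the start of TNFAIP3, had 12 to 14 counts in NC and 11 to 15 in the others. ENSG00000260616, opposite the end of CYLD, had at most 2 counts in a library, and MIR3181 and RNA5SP383, inside CYLD and RNF31, had 0. Beside OTULIN, ANKH had 0.08 (edgeR adjusted p = 0.661) and the pseudogene EEF1A1P13 had -1.02 (edgeR adjusted p = 0.127), with between 13 and 40 counts.

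NF-kB target genes, the transcripts that signalling through linear chains is known to raise, included several that fell. Of 22 on the list, 19 were tested, and 6 passed as lower and 0 as higher (edgeR, adjusted p under 0.05), against 1.48% and 1.61% of all genes tested. The number with an unadjusted p under 0.05 was 11, and 8 passed in DESeq2 and 5 in limma-trend in either direction, against 25.1%, 11.8% and 2.56% of all genes. Their median log2FC was -0.35, against -0.02 for all genes tested. In the fit without NC library 3, 11 passed as lower and 1 as higher, against 18.3% and 16.7% of all genes tested. When NC library 1 or 2 or a siRNA-labelled library was dropped instead, 0 of these genes and 0 of all genes tested passed. In those fits 18 to 42 genes over all lists (118 tested with all libraries) had an unadjusted p under 0.05, against 2228 to 4451 of all genes tested. The list was drawn up with earlier results of these data known. TNFAIP3 was kept off it as a member.

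IL1B, an inflammatory cytokine, stood at 605, 622 and 777 CPM in NC and at 345, 335 and 345 CPM in the siRNA-labelled libraries. Its log2FC was -0.97 (SE 0.14, edgeR adjusted p = 0.0303), and the groups did not overlap. NFKBIA, the inhibitor of NF-kB and one of its own first targets, fell from 179.5, 192 and 210 CPM to 126, 121 and 127 CPM (log2FC -0.64, SE 0.12, edgeR adjusted p = 0.0387). SOD2, the mitochondrial superoxide dismutase, fell from 2622, 2732 and 4462 CPM to 1409, 1466 and 1468 CPM, with the top value in NC library 3. Its log2FC was -1.18 (edgeR adjusted p = 0.0444), and -0.89 without that library.

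The chemokine gene CXCL1 (log2FC -1.04, edgeR adjusted p = 0.0378), TNFAIP2 (-0.84, adjusted p = 0.0378) and the NF-kB subunit RELB (-0.69, adjusted p = 0.0393) also fell. CXCL8, which encodes a chemokine for neutrophils, had 1368, 1448 and 3001 CPM in NC and 721, 747 and 749 CPM in the others. Its log2FC of -1.39 was the lowest on the list and did not pass (edgeR adjusted p = 0.0573), though it passed without NC library 3 at -0.93 (adjusted p = 6.2e-11). BCL3, a nuclear NF-kB cofactor, had the highest value at 0.67 (edgeR adjusted p = 0.133). CXCL10, TNF and VCAM1 were below the filter.

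**Figure D4:**
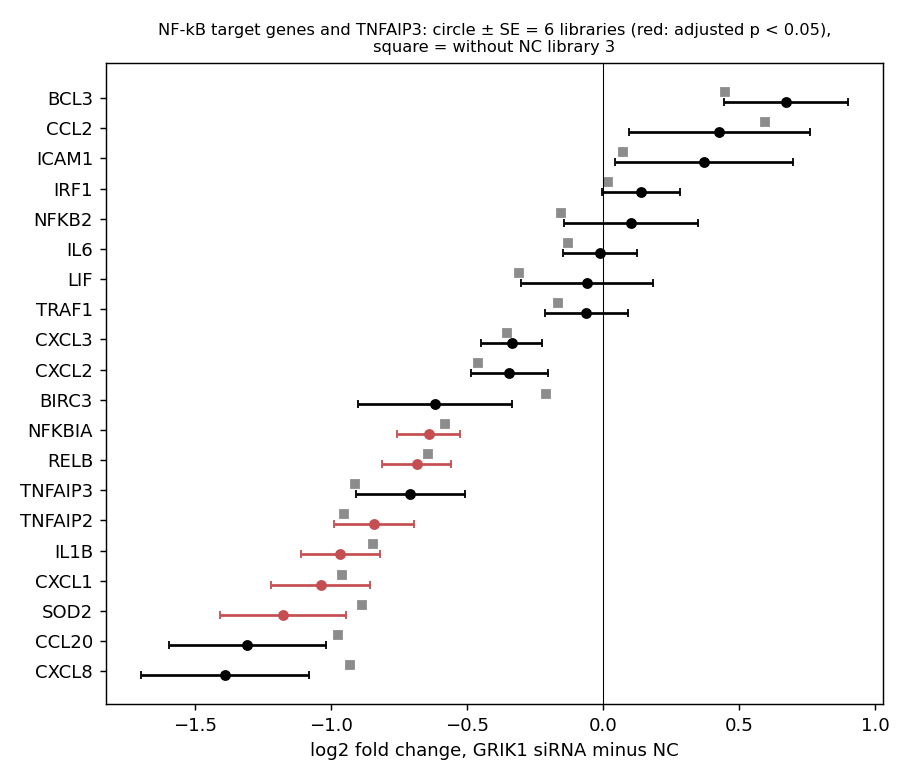
Log2 fold change between GRIK1 siRNA and NC (horizontal axis) of the 19 tested NF-kB target genes and TNFAIP3 from edgeR, with the standard error as bars (6 libraries, red where the adjusted p was under 0.05) and grey squares for the fit without NC library 3. The 6 red genes lie between -0.64 and -1.18, and TNFAIP3 lies among them without passing.

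The machinery between receptor and NF-kB was counted in the same way, and the counts are to be read against the same shares of all genes. In edgeR, 1.61% passed as higher and 1.48% as lower, and 25.1% had an unadjusted p under 0.05. The shares past the test were 11.8% in DESeq2 and 2.56% in limma-trend. Of 16 tested genes for the kinases and NF-kB subunits, 1 passed as lower (RELB, which is also on the target list) and 0 as higher in edgeR, with 3 at an unadjusted p under 0.05, and 1 passed in each of DESeq2 and limma-trend. Their median log2FC was -0.05, and TAB1, an activator of the kinase TAK1, had the highest value at 0.32 (edgeR adjusted p = 0.274). Of 22 tested receptor complex genes, on which LUBAC acts, 0 passed in edgeR, 5 had an unadjusted p under 0.05, 1 passed in DESeq2 and 0 in limma-trend (median -0.22). The share at an unadjusted p under 0.05 lay near that of all genes. NOD1, an intracellular sensor, had the highest value at 0.54 (edgeR adjusted p = 0.107) and TLR3, a receptor for double-stranded RNA, the lowest at -0.75 (adjusted p = 0.102). Of 13 genes for readers of linear chains and partners of A20 and CYLD, 0 passed in edgeR, 4 had an unadjusted p under 0.05, and 0 passed in DESeq2 or limma-trend (median -0.15). TNIP3, an A20 partner, had the lowest value at -0.93 (edgeR adjusted p = 0.191), with 17.2 CPM in NC library 3 against 4.15 to 7.63 in the rest, and the ligase ITCH had the highest at 0.19 (adjusted p = 0.401). Without NC library 3, 1 of these 13 passed as higher and 4 as lower, 2 and 8 of the receptor complex genes, and 2 and 3 of the kinase and subunit genes, against 16.7% of all genes as higher and 18.3% as lower.

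Genes of the ubiquitin system related to the members gave 1 gene past the edgeR test. The same shares of all genes apply to their counts, with 1.61% past as higher and 1.48% as lower in edgeR. Of 11 other tested ligases of the RING-between-RING family to which RBCK1 and RNF31 belong, 0 passed in edgeR, 5 had an unadjusted p under 0.05, 1 passed in DESeq2 and 0 in limma-trend (median -0.04). CUL9 had the highest value at 0.83 (edgeR adjusted p = 0.172), with 12.2 CPM in NC library 3 and 29.6 and 32.9 in the other NC libraries, and RNF144B the lowest at -0.67 (adjusted p = 0.0744). Of 11 other tested deubiquitinases of the OTU family, 0 passed in edgeR, 3 had an unadjusted p under 0.05, 1 passed in DESeq2 and 0 in limma-trend (median 0.05). YOD1 was the highest of these at 0.67 (edgeR adjusted p = 0.0951) and OTUD6B the lowest at -0.37 (adjusted p = 0.304). Among 16 ubiquitin, E1 and E2 genes, 1 passed as higher and 0 as lower in edgeR, with 6 at an unadjusted p under 0.05 (median -0.23), and 1 passed in DESeq2 and in limma-trend. The gene in edgeR was UBA6, a ubiquitin-activating enzyme, which rose from 128, 128 and 147 CPM to 201, 224 and 214.5 CPM (log2FC 0.67, SE 0.12, edgeR adjusted p = 0.0387). RPS27A, a ubiquitin fusion with a ribosomal protein, had the lowest value at -0.78 (edgeR adjusted p = 0.207), with 1264 CPM in NC library 3 against 435 to 545.5 elsewhere, and the median of these 16 genes was 0.01 without that library.

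Glycogen genes were counted because loss of RBCK1 in people leads to a glycogen storage disease. Of 13 tested, 0 passed in edgeR, where 1.61% of all genes passed as higher and 1.48% as lower. The number with an unadjusted p under 0.05 was 7, and 2 passed in DESeq2 and 0 in limma-trend (median -0.11), against 25.1%, 11.8% and 2.56% of all genes. UGP2, which makes the glucose donor for glycogen, had the lowest value at -0.80 (edgeR adjusted p = 0.0639) and PPP1R3B, a glycogen-targeting phosphatase subunit, the highest at 0.39 (adjusted p = 0.132). The median was 0.06 without NC library 3, and 3 of the glycogen genes passed as higher and 6 as lower, against 16.7% and 18.3% of all genes. In the same fit, 3 and 2 of the other RING-between-RING ligases, 3 and 1 of the OTU deubiquitinases and 3 and 5 of the ubiquitin, E1 and E2 genes passed as higher and lower.

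Genes whose log2 CPM followed RBCK1 closely over the 6 libraries, among 6909 others with a mean of at least 5 FPKM, included STT3A (Pearson r of 0.996), ZNF79 (0.995), DIP2B (0.994) and MORC4 (0.994). STT3A is a catalytic subunit of the enzyme that attaches N-glycans to proteins. These correlations describe 2 groups of libraries and carry no test, and 180 of the 6909 genes had an r over 0.95. RNF31 had an r of 0.86 with RBCK1 and SHARPIN had -0.43, again over 6 libraries that share their grouping.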

How the data were processed

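RNA of 6 U87-MG libraries was analysed, and groups and replicate numbers were taken from the sample titles. The authors deposited whole-number counts per gene and FPKM values, which equalled the count divided by exonic size and total count for 100% of entries (tolerance 0.0051). The submitters' processing notes name cutadapt 1.9.1, HISAT2, HTSeq and GRCh38. The strand setting is not given in the sources used here. Counts with a mean FPKM of at least 0.5 (15870 genes) were tested with the quasi-likelihood test of edgeR 4.0.16 (R 4.3.3, TMM scaling, no covariate, Benjamini-Hochberg over all genes tested). Alternatives used DESeq2 1.42.0 and limma 3.58.1. Ratios used exact permutation tests. Members, gene lists and rules were chosen with earlier results of these data known. The text names the 6 members, GRIK1, overlapping genes, the nearest tested gene on each side within 20 kb, list genes at an adjusted p under 0.05, the highest and lowest of each list, and the 5 genes most like RBCK1, of which 1 is not reported here. RNA5SP383 and MIR3181 had no counts. VIM, GFAP and other markers came from a fixed list, and CXCL10, TNF and VCAM1 were named after their values were seen. Promoter windows came from RefSeq, and transcript lengths and exons from GENCODE 29, both on GRCh38. Each library was counted as its own sample. Counts of replicate libraries differed by a mean chi-square of at least 2.32 per gene, which does not show that they came from separate cultures. Low counts limit precision, as for RNF31.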

Additional observations from a re-analysis of the deposited data

How the results depend on the processing

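The direction of each of the 5 members other than RBCK1 was the same under all 13 alternatives, which reuse the same libraries. That of RBCK1 was the same too, a description only because its rise chose the group. Besides the values given above, RNF31 passed without a filter (log2 fold change 1.09, adjusted p = 0.0197 from edgeR), as did TNFAIP3 (-0.73, adjusted p = 0.0243), and with DESeq2 their values were 1.11 and -0.71. With 1 library left out, RBCK1 lay between 1.48 and 1.71, RNF31 between 0.78 and 1.38, SHARPIN between -0.39 and -0.14, OTULIN between -0.51 and -0.11, CYLD between -0.37 and -0.07 and TNFAIP3 between -0.91 and -0.59. The group difference (siRNA-labelled minus NC) in the log2 ratio of SHARPIN to RNF31 lay between -1.75 and -1.11. For OTULIN to RNF31 it lay between -1.90 and -0.88. The exact permutation p for OTULIN to RNF31 was 0.3, 0.2 and 0.2 without siRNA-labelled library 1, 2 or 3, and 0.1 without an NC library. For SHARPIN to RNF31 the exact permutation p was 0.2 without siRNA-labelled library 3 and 0.1 in the other fits. The difference in the RBCK1 share lay between 27.7 and 29.2 percentage points. The share difference was 20.4 points in CPM and 25.2 points per principal transcript length.

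At an absolute log2 fold change over 1, edgeR called 138 genes higher and 86 lower. The counts were 448 and 216 without a filter, 339 and 160 in DESeq2, 247 and 224 at a fold of 1.5, and 255 and 235 without a fold threshold. Limma-trend called 16 lower with a pseudocount of 1 and 33 with 0.1. With 1 library left out they ranged from 0 to 350 higher and from 0 to 161 lower, both highest without NC library 3 and 0 without any 1 of the other 5, where 2228 to 4451 genes had an unadjusted p under 0.05. Over the 8 lists together, with 118 genes tested in the main fit, 1 gene passed as higher and 6 as lower. In that fit 490 of all 15870 genes passed in either direction. The list counts were 3 and 13 without a filter and 2 and 12 in DESeq2, where 1403 and 1684 of all genes passed. They ranged from 0 to 18 and from 0 to 39 with 1 library left out, the highest again without NC library 3. Without that library 16.7% of all genes tested passed as higher and 18.3% as lower, and 0 passed without any 1 of the other 5. Calls on these genes therefore rest on which libraries are included, and the cause of the difference of NC library 3 was not tested.

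With the replicate block, 0 genes were called higher and 0 lower, and 0 list genes passed in either direction (edgeR). At an unadjusted p under 0.05 there were 30 list genes and 3324 of all genes tested. RNF31 then had 1.18 (adjusted p = 0.141) and TNFAIP3 -0.67 (adjusted p = 0.167). Nothing beyond the number is stated to link same-numbered libraries. Their deviations from the group means had correlations of -0.07, 0.04 and -0.04 across genes. With 3 libraries per group and NC library 3 far from the rest, these correlations cannot decide whether the libraries are paired.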
